A study of Monodelphis domestica and Mus musculus with 26 samples.

Results

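The PIWI proteins and the piRNA pathway were followed through 10 genes chosen by name: PIWIL1, PIWIL2, PIWIL4, DDX4, MAEL, MOV10L1, TDRD1, TDRD9, ASZ1 and HENMT1, each matched to the gene names of the files in any letter case. All 10 were matched among the 32532 features of the mouse single-cell matrices. In opossum 9 were matched, both among the 32251 single-cell features and among the 34985 gene IDs of the bulk tables, and HENMT1 was analysed in mouse only. The study compared spermatogenesis in adult C57BL6/J mice, given as 8 to 16 weeks old, and gray short-tailed opossums (Monodelphis domestica), a marsupial. Dissociated whole testes of adults gave 3 droplet 3′ single-cell libraries per species, and opossum testes gave 20 bulk RNA-seq libraries: 2 at 1 month of age, 4 at 2 months, 4 at 3 months, 3 at 4 months and 7 from adults. Of the bulk libraries 16 were poly(A)-selected and 4 rRNA-depleted, the depleted ones being 2-month replicates 2, 3 and 4 and adult replicate 2. The labels give no transgene, deletion or treatment for any group, and no strain for the opossums. They do not say whether libraries of a group came from separate animals, so the p-values below measure the spread between these libraries, which may be technical.

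PIWI proteins are Argonaute family members that bind piRNAs, small RNAs of germ cells that silence transposons and cleave or repress other transcripts. In mouse, PIWIL2 and PIWIL4 act in the fetal and neonatal prospermatogonia, where PIWIL4 enters the nucleus and directs DNA methylation to transposons, while PIWIL1 carries the abundant pachytene piRNAs of spermatocytes and round spermatids. MOV10L1 is an RNA helicase that feeds piRNA precursors to the mitochondrial surface, where ASZ1 anchors the processing machinery. TDRD1 and TDRD9 are Tudor proteins that bind methylated PIWI proteins, DDX4 (also named VASA) and MAEL are components of the germ granules, and HENMT1 methylates the 3′ ends of mature piRNAs.

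Single-cell levels are given as CPM, the usual depth-scaled share of a gene, here in the deposited estimated UMI counts summed over all cells of a class in a library. The mouse matrices held 45395185 to 65263953 UMIs and the opossum matrices 22710048 to 37747724. After filtering, 7208 to 8714 mouse cells and 5126 to 7476 opossum cells per library were grouped into 26 clusters in each species, and clusters were named from marker lists that hold none of these genes, which were also kept out of the clustering. Of the listed markers the opossum files named 15 of 20 for spermatogonia, 21 of 35 for spermatocytes, 8 of 25 for round and 13 of 26 for elongating spermatids. Spermatogonia numbered 238 to 616 cells per library in mouse and 67 to 261 in opossum. Spermatocytes numbered 952 to 2008 in mouse and 513 to 1814 in opossum. Of the mouse clusters, 2 stayed unnamed: 1 of 2715 cells led by hemoglobin genes, and 1 of 1623 cells that scored highest for round spermatids but had Ccna1, Plk1 and Aurka among its leading genes. Mouse replicates 1 and 2 shared 198 cell barcodes (1.82% of the smaller library), and every other pair of libraries shared 0 to 43. Between germ cell classes the TMM scaling of edgeR and scaling by library totals alone gave different baselines. From round to elongating spermatids, for example, the median log2 change over all tested genes was -0.30 with TMM and -1.64 with totals in mouse, and 0.05 against -1.46 in opossum. Where the scalings disagreed on a call of these 10 genes, both values are given.

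MYBL1, the transcription factor A-MYB that switches on pachytene piRNA precursors and pathway genes in mouse, was itself measured. Its level was 7.71 ± 8.06 CPM in mouse spermatogonia and 82.0 ± 44.1 in spermatocytes (SD, n = 3), and 32.4 ± 6.39 and 146 ± 2.96 in opossum. The change to spermatocytes was called in both species, with a log2 change of 4.36 in mouse and 2.46 in opossum. The mouse promoters of 3 genes are shown because they differ in whether they hold the MYB core motif TAACNG, with the motif in capitals on either strand. They are the 250 bases before the start of the canonical transcript, 5′ to 3′ on the gene's strand, in GRCm39: chr5:128812988-128813237 (plus strand) for PIWIL1, chr15:88866835-88867084 (plus strand) for MOV10L1 and chr9:14652037-14652286 (minus strand) for PIWIL4.
PIWIL1: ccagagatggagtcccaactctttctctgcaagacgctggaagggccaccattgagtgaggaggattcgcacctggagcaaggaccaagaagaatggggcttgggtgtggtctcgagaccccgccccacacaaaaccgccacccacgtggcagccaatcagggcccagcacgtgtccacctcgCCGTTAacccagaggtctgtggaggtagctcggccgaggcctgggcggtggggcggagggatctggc
MOV10L1: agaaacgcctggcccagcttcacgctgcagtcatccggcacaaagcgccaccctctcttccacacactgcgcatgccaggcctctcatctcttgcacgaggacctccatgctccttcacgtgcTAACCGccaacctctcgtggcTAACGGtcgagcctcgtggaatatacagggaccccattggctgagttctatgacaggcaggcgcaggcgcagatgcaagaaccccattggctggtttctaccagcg
PIWIL4: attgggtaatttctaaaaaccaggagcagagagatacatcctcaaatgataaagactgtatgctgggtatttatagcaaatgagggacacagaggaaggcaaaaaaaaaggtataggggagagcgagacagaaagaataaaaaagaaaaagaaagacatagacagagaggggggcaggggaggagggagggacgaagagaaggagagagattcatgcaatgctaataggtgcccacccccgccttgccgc
PIWIL1 held 1 match, 67 bases before the start. MOV10L1 held 2, at 127 and 106 bases before the start, and PIWIL4 held none. Of the 10 mouse promoters these 2 held the motif, beside 19.6% of all 21757 mouse promoters searched (4256). The other 8, which include PIWIL2, TDRD1 and MAEL, held none in this window. A match describes letters and is not evidence of binding.

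Of the 4 germ cell classes, PIWIL1 was highest in spermatocytes in every library of both species. In mouse (chromosome 5, 128813238 to 128832538, GRCm39) its level in replicates 1, 2 and 3 was 13.3, 19.4 and 39.1 CPM in spermatogonia and 347, 173 and 508 in spermatocytes. All 3 spermatocyte values lay above all 3 spermatogonial ones. Mouse somatic classes had 0 to 143 CPM of PIWIL1 over the 13 sums of at least 20 cells (the endothelial and immune sums of replicate 3, with 7 and 6 cells, are left out of somatic ranges), with a median of 14.8, so the mouse spermatogonial and spermatid levels are within what classes that should lack the gene show. Round spermatids had 15.1, 12 and 18.8 CPM and elongating spermatids 1.14, 1.66 and 8.59. In opossum (chromosome 3, 469927564 to 469971942 in the coordinates of the bulk tables) spermatogonia already had 124, 130 and 206 CPM, and spermatocytes had 509, 515 and 497. The opossum spermatid values were 52.1, 23.5 and 62.9 in round and 20.7, 8.03 and 10.1 CPM in elongating spermatids, so that every class was separated from its neighbours. Opossum somatic sums had 1.35 to 48.6 CPM, below all spermatogonial values. That range holds the elongating spermatid values and the 23.5 of round spermatid replicate 2. The rise to spermatocytes was 4.77 ± 0.34 (log2, SE) in mouse (edgeR, Benjamini-Hochberg adjusted p = 3.2e-05) and 2.02 ± 0.16 in opossum (adjusted p = 7.63e-06). PIWIL1 then fell by 4.14 ± 0.25 in mouse and 3.13 ± 0.33 in opossum on entering the round spermatid class (edgeR adjusted p = 1.94e-06 and 0.000145).

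The PIWIL2 levels of spermatogonia and spermatocytes overlapped. In mouse (chromosome 14, 70609365 to 70666565, GRCm39) its level was 94.4, 90.2 and 145 CPM in spermatogonia and 94.8, 47.7 and 225 in spermatocytes. In opossum (chromosome 1, 584258147 to 584340653) it was 71.1, 62.6 and 116.7 CPM in spermatogonia and 76.0, 56.8 and 75.8 in spermatocytes. The step between these classes was called in neither species by TMM or by library totals. In mouse it missed only the minimum of 1 with TMM (log2 0.83, edgeR adjusted p = 0.0241) and was called higher without replicate 2 (1.08) and with no filter on low counts (1.02). These values all used TMM. With library totals the mouse value changed sign, as given in the section on processing, so this rise depended on the scaling. PIWIL2 fell at the next step. Mouse round spermatids had 7.75, 9.98 and 21.9 CPM. Opossum round spermatids had 0, 1.88 and 0, where a count of 0 in replicates 1 and 3 allows up to 2.62 and 2.39 CPM (3 counts of the total, counting error only). The mouse fall was 2.84 ± 0.29 on the log2 scale (edgeR adjusted p = 3.94e-05). The opossum fall was also called (adjusted p = 0.000427), and its fitted log2 value of -5.58 rests on these near-empty sums and depends on the fit (-10.2 without replicate 2).

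Of the germ cell classes, PIWIL4 was highest in spermatogonia in every library of both species. Opossum spermatogonia (gene on chromosome 4, 264320787 to 264378862) had 188, 195 and 226 CPM. Opossum spermatocytes had 4.36, 4.32 and 1.47, and elongating spermatids 0, 0.141 and 0 CPM. Mouse spermatogonia (chromosome 9, 14613074 to 14652036, GRCm39) had 5.66, 7.51 and 10.0 CPM and mouse spermatocytes 0.0768, 0.179 and 0.110, which is 1 to 1.83 estimated counts per library. The fall from spermatogonia was called in both species, at -4.98 ± 0.74 (log2, SE) in mouse and -5.59 ± 0.28 in opossum (edgeR adjusted p = 0.000821 and 9.5e-07). The difference between species in this fall was not called (edgeR log2 -0.70 ± 1.34, adjusted p = 0.683). It depended on the cell filters: at a minimum of 2000 UMIs per cell and with no doublet removal the opossum fall shrank to -2.97 and -3.33, and the difference was then called with the opposite sign (2.40 and 2.1, edgeR adjusted p = 0.0234 and 0.0131). Levels of a gene are set side by side across species without a test, since the annotated 3′ ends differ. Mouse Leydig cells had 10.4 ± 1.22 CPM of PIWIL4, with a range of 9.03 to 11.4 that lies above 2 of the 3 spermatogonial values. Opossum Leydig cells had 0.172 ± 0.248. Mouse Sertoli and peritubular cells had a count of 0 in each library, which allows up to 2.47 to 12.7 CPM. In mouse the PIWIL4 counts came mostly from cluster 21, 154 cells led by Zbtb16, Glis3 and Trim71 among others, where the level was 44.1 ± 21.6 CPM. The other spermatogonial cluster, cluster 7 with 1138 cells led by Crabp1 and Dmrt1, had 1.05 ± 0.989. Opossum spermatogonia formed 1 cluster of 481 cells.

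**Figure D1:**
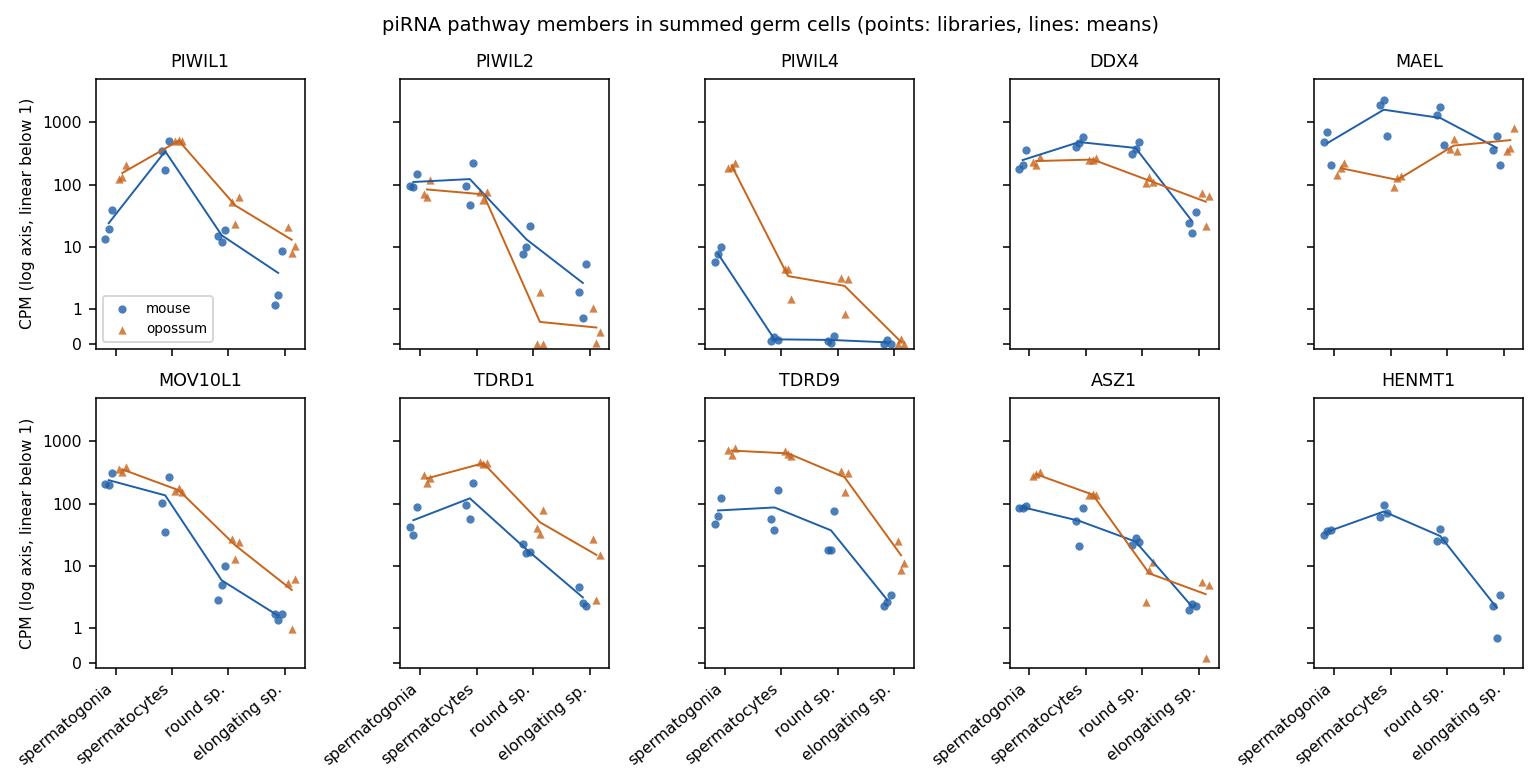
Level of each gene in CPM (vertical axis, logarithmic above 1 and linear below) in summed spermatogonia, spermatocytes, round and elongating spermatids (horizontal axis), 1 point per library and lines through the means of 3 libraries, circles for mouse and triangles for opossum. PIWIL1 peaks in spermatocytes in both species, PIWIL4 is highest in spermatogonia, and MAEL is highest in spermatocytes in mouse and in spermatids in opossum.

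Within the spermatocyte class the clusters placed the genes in order. The mouse clusters are described from early to late by their levels of preset stage markers: cluster 11 with 946 cells led by Stra8 and Dmc1 among others, cluster 19 with 352 cells (3 of them from replicate 2, which is left out of its values) led by Rad51ap2 and Meiob, cluster 14 with 773 cells led by Tex101 and Piwil1, and cluster 9 with 1092 cells, which has the highest sum of late markers of the 4. Cluster 16, with 758 cells of which 588 came from replicate 3, was shallow and is given beside them. MOV10L1 and PIWIL2 were highest in cluster 19, at 925 ± 313 and 405 ± 221 CPM (SD, n = 2), against 229 ± 126 and 124 ± 53.8 in cluster 11 134 ± 85.7 and 160 ± 92.4 in cluster 14, and 32.1 ± 18.9 and 51.5 ± 32.4 in cluster 9 (n = 3). ASZ1 was at 97.9 ± 29.6, 202 ± 25.7, 69.8 ± 16.3 and 15.2 ± 10.3 CPM in clusters 11, 19, 14 and 9. The means of these 3 genes were thus highest in cluster 19 and that of PIWIL1 in cluster 14, though the PIWIL2 ranges of clusters 14 and 19 overlapped.

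PIWIL1 had 29.7 ± 30.9 CPM in cluster 11, a spermatogonial level, 104 ± 3.75 in cluster 19, 625 ± 250 in cluster 14 and 126 ± 29.0 in cluster 9. TDRD1 followed the same course, with 22.8 ± 19.9, 67.0 ± 10.6, 216 ± 118 and 44.1 ± 17.2 CPM in these clusters. HENMT1, the piRNA methyltransferase, had 12.1 ± 4.47 CPM in cluster 11, 6.53 ± 9.23 in cluster 19 and 71.9 ± 11.2 and 88.3 ± 12.6 in clusters 14 and 9. Cluster 16 had PIWIL1 at 563 ± 191 CPM, near cluster 14, and PIWIL2 at 273 ± 67.6, which overlaps cluster 19, with MOV10L1 at 205 ± 42.8 and ASZ1 at 115 ± 43.0. The unnamed cluster of 1623 cells had 52.7 ± 14.3 CPM of PIWIL1 and 1510 ± 780 of MAEL.

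In opossum, cluster 12 (629 cells) had the highest sum of early markers and cluster 9 (770 cells) a middle level. Cluster 3 (1398 cells) had the highest sum of late markers, 625 CPM against 518 in cluster 9 and 474 in cluster 10. Cluster 10 (731 cells) was shallow. These sums rest on 6 early and 6 late markers. The 3 pachytene markers summed to 1860 CPM in cluster 10, 872 in cluster 3, 616 in cluster 9 and 491 in cluster 12. The place of cluster 10 in this order is thus uncertain. PIWIL1 was at 336 ± 74.6 CPM in cluster 12, 803 ± 28.3 in cluster 9 and 372 ± 55.4 in cluster 3. PIWIL2 went from 170 ± 55.4 CPM in cluster 12 to 80.1 ± 31.3 in cluster 9 and 5.50 ± 4.03 in cluster 3. ASZ1 went from 339 ± 51.6 to 142 ± 58.2 and 12.4 ± 3.40 CPM, and MOV10L1 from 305 ± 52.7 to 171 ± 36.2 and 89.8 ± 4.26. TDRD9 was at 652 ± 150 to 764 ± 59.2 CPM in these 3 clusters but at 215 ± 80.0 in the shallow cluster 10, where PIWIL1 had 432 ± 110 and PIWIL2 21.7 ± 15.3. Clusters were not compared with tests, and those of the species are not matched stages. In the clusters with the highest sum of early markers PIWIL1 stood at 8.01 to 65.0 CPM in mouse cluster 11 and 258 to 407 in opossum cluster 12.

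**Figure D2:**
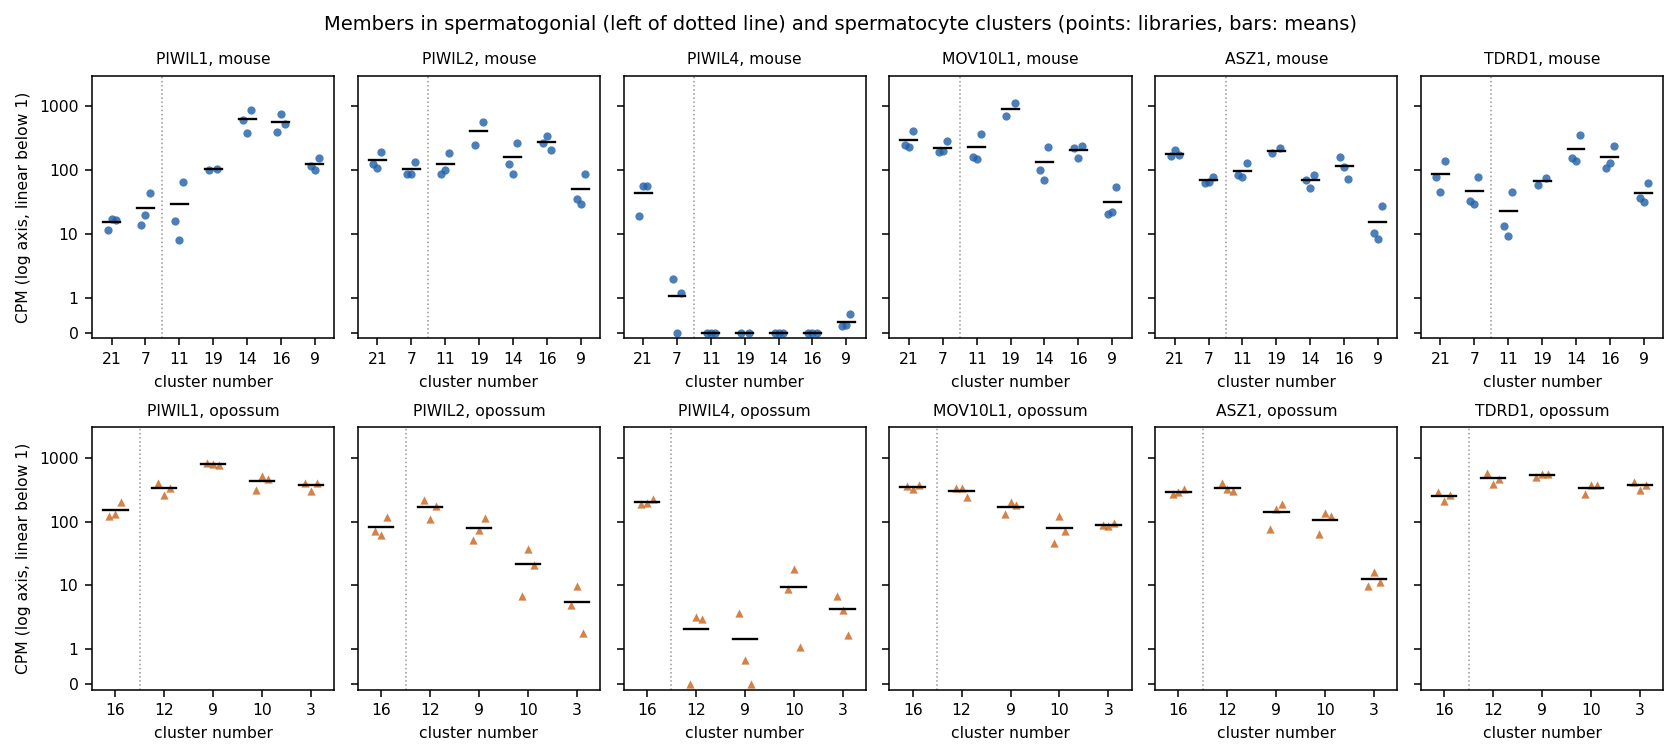
Level of 6 genes in CPM (vertical axis, logarithmic above 1) in the spermatogonial clusters, left of the dotted line, and the spermatocyte clusters. The horizontal axis gives cluster numbers in the order early to late as far as the markers give it. The shallow clusters 16 in mouse and 10 in opossum stand in between. Points are libraries with at least 20 cells in the cluster, and bars are means. In mouse PIWIL2, MOV10L1 and ASZ1 are highest in cluster 19 and PIWIL1 and TDRD1 in cluster 14, and in opossum PIWIL2 and ASZ1 are lowest in cluster 3.

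MAEL, a germ granule protein needed for transposon silencing, was highest in spermatocytes in mouse and in spermatids in opossum. In mouse its level was 477, 702 and 209 CPM in spermatogonia, 1894, 2287 and 610 in spermatocytes, 1333, 1757 and 439 in round spermatids and 366, 596 and 207 in elongating spermatids. Replicate 3 was the lowest in every class, so that the class ranges overlapped, while within each library spermatocytes were above spermatogonia. In opossum spermatogonia had 145, 187 and 219 CPM and spermatocytes 91.9, 130 and 135. Round spermatids had 371, 545 and 353 and elongating spermatids 345, 384 and 826, all above every spermatocyte value when whole classes were summed. The elongating clusters differed: MAEL was at 678 ± 216 CPM in cluster 17 and 362 ± 121 in cluster 6 (SD, n = 3), but at 96.3 ± 91.1 in cluster 15 and 42.4 in cluster 25 (1 library), which had the highest sums of elongating spermatid markers. Clusters 15 and 25 were thus near or below the spermatocyte level. MAEL rose by 2.65 ± 0.25 (log2, SE) on entering mouse spermatocytes (edgeR adjusted p = 9.71e-05) and by 2.27 ± 0.34 on entering opossum round spermatids (adjusted p = 0.000683). A further opossum rise to elongating spermatids of 1.68 ± 0.56 (adjusted p = 0.00815) was called with TMM but was 0.18 ± 0.48 with library totals (edgeR adjusted p = 0.775) and was not called without replicate 3 (log2 0.82, adjusted p = 0.326) or at a minimum of 500 UMIs per cell (0.52). It sums clusters with unlike MAEL levels. MAEL was also counted in mouse somatic classes, at 19 to 938 CPM over 13 sums with a median of 177. That range holds all mouse spermatogonial and elongating spermatid levels, and the spermatocyte and round spermatid levels of replicate 3. The part of free RNA was not tested. In opossum the 15 somatic sums had 0 to 170 CPM, which holds every spermatocyte value and the lowest spermatogonial one, 145.

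DDX4, the VASA RNA helicase, was counted in all germ cell classes. Mouse levels were 176, 210 and 358 CPM in spermatogonia, 405, 459 and 582 in spermatocytes, 309, 369 and 484 in round and 23.8, 16.9 and 36.5 in elongating spermatids. The elongating spermatids lay below every other class. Their clusters differed, at 87.7 ± 18.4 CPM in cluster 4 against 3.49 ± 3.01 and 5.94 ± 3.03 in clusters 1 and 2 (SD, n = 3). Opossum levels were 235, 205 and 277 CPM in spermatogonia, 247, 244 and 266 in spermatocytes, 106, 131 and 111 in round and 73.1, 21.6 and 64.4 in elongating spermatids. In mouse DDX4 rose by 1.91 ± 0.27 (log2, SE) to spermatocytes and fell by 2.61 ± 0.24 from round to elongating spermatids (edgeR adjusted p = 0.000612 and 4.28e-05). No opossum step was called for DDX4 with TMM. The step from spermatocytes to round spermatids was -0.68 ± 0.32 with TMM (edgeR adjusted p = 0.0889) and was called lower with library totals (-1.12 ± 0.32, adjusted p = 0.00871). Mouse somatic sums had 0.532 to 162 CPM of DDX4, a range that holds the elongating spermatid values. Opossum somatic sums had 4.92 to 115, which holds the elongating and reaches into the round spermatid values.

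The helicase MOV10L1 and the anchor ASZ1 were highest in spermatogonia in every library of both species when whole classes were summed, although mouse cluster 19 and, for ASZ1, opossum cluster 12 of the spermatocytes had higher means than the spermatogonial clusters. MOV10L1 stood at 208, 202 and 306.2 CPM in mouse spermatogonia, 102, 35.6 and 271 in spermatocytes and 2.83, 4.91 and 9.84 in round spermatids. In opossum it stood at 361, 324 and 382, then 161, 180 and 152, then 27.5, 12.9 and 23.95 CPM, with no overlap between classes. ASZ1 stood at 85.4, 85.3 and 92.9 CPM in mouse spermatogonia, 53.5, 20.6 and 84.8 in spermatocytes and 21.7, 28.0 and 23.9 in round spermatids. In opossum it stood at 275, 295 and 320, then 139, 141 and 139, then 2.63, 8.48 and 11.6 CPM. The fall to round spermatids was called for MOV10L1 in both species, at -4.05 ± 0.42 in mouse and -2.58 ± 0.34 in opossum (log2, SE, edgeR adjusted p = 4.23e-05 and 0.000364), and for ASZ1 in opossum (-3.76 ± 0.45, adjusted p = 0.000235). ASZ1 in mouse was not called at that step (-0.67 ± 0.38, edgeR adjusted p = 0.148), though it was without replicate 2 (-1.18, adjusted p = 0.00396), and it fell by 2.14 ± 0.31 to elongating spermatids (adjusted p = 0.000453). The step from spermatogonia to spermatocytes had an adjusted p of 0.000405 for MOV10L1 and 0.000303 for ASZ1 in opossum, with log2 values of -0.86 and -0.83 that miss the minimum of 1 (edgeR). With library totals both passed, at -1.09 and -1.07, and ASZ1 also without replicate 1 (-1.0).

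Of the Tudor proteins, TDRD1 was highest in spermatocytes among the germ cell classes of every library. It had 42.9, 31.4 and 88.4 CPM in mouse spermatogonia and 93.8, 57.6 and 214 in spermatocytes, and 294, 213 and 257 and then 466, 427 and 450 in opossum. Round spermatids had 22.5, 16.4 and 16.6 CPM in mouse and 40.7, 32.0 and 78.4 in opossum. The rise was 2.00 ± 0.25 in mouse and 1.08 ± 0.13 in opossum and the following fall 2.27 ± 0.36 and 2.81 ± 0.32 (log2, SE, edgeR adjusted p from 7.71e-05 to 0.000483). The opossum rise was under the minimum in 7 of 14 alternatives, among them library totals (0.84) and leaving out replicate 2 (0.99), and lowest with no doublet removal (0.44). Opossum Sertoli cells had 180 ± 79.2 CPM of TDRD1, against 17 ± 5.13 in opossum Leydig cells and 34.4 ± 25.8 in mouse Sertoli cells. Mouse somatic sums reached 64.0 CPM of TDRD1, within the range of mouse spermatogonia. Opossum somatic sums reached 262 CPM, within the range of opossum spermatogonia. TDRD9, which is also a helicase, was not called from spermatogonia to spermatocytes, at 47.9, 63.6 and 122 and then 55.9, 37.2 and 168 CPM in mouse, and 736, 615 and 787 and then 701, 639 and 590 in opossum. The mouse step missed only the minimum of 1 with TMM (log2 0.90, edgeR adjusted p = 0.0177) and was called higher without replicate 2 (1.1) and with no filter on low counts (1.09). With library totals it changed sign, as given in the section on processing, so this rise also depended on the scaling. Round spermatids had 17.8, 17.8 and 76.1 CPM in mouse and 332, 154 and 314 in opossum. TDRD9 fell from round to elongating spermatids by 2.08 ± 0.41 in mouse and 2.75 ± 0.61 in opossum (edgeR adjusted p = 0.00205 and 4.46e-05). HENMT1, measured in mouse, had 31.7, 36.6 and 37.7 CPM in spermatogonia, 60.1, 94.0 and 70.3 in spermatocytes, 25.2, 39.2 and 26.2 in round and 2.27, 0.725 and 3.37 in elongating spermatids, and the spermatocyte values did not overlap those of spermatogonia. It rose by 1.93 ± 0.31 to spermatocytes and fell by 2.51 ± 0.51 to elongating spermatids (log2, SE, edgeR adjusted p = 0.00116 and 0.00241). Its fall of 1.08 ± 0.23 to round spermatids lost its call in 5 of 14 alternatives, among them leaving out replicate 2 (log2 -0.96). That of TDRD9 in mouse (1.04 ± 0.24) lost it in 6 of 14, among them leaving out replicate 1 (-0.86).

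In elongating spermatids several of these transcripts were no higher than in somatic classes. PIWIL2 had 1.87, 0.742 and 5.25 CPM in mouse and 1.04, 0.0176 and 0.333 in opossum. ASZ1 had 1.92, 2.47 and 2.23 CPM in mouse and 5.45, 0.132 and 4.95 in opossum, and TDRD1 had 4.58, 2.49 and 2.27 and then 27.2, 2.82 and 15.1. Opossum replicate 2 was the lowest for all 3 genes. TDRD9 had 2.30, 2.67 and 3.45 CPM in mouse and 24.9, 8.52 and 11.1 in opossum, and MOV10L1 1.70, 1.33 and 1.70 and then 5.31, 0.987 and 6.05. Mouse somatic sums of at least 20 cells reached 25.3 CPM for PIWIL2, 17.8 for ASZ1, 38.5 for TDRD9 and 23.3 for MOV10L1, and opossum sums 6.20, 16.3, 67.8 and 22.9, so elongating spermatid levels of these 4 genes lay within the levels of somatic classes in both species.

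By counts, a gene is called where the adjusted p is under 0.05 and the absolute log2 change at least 1. From mouse spermatogonia to spermatocytes 6 of the 10 genes were called, 5 higher (PIWIL1, MAEL, TDRD1, HENMT1, DDX4) and PIWIL4 lower, where 59.4% of all 14600 genes tested were called (31.1% higher), and their median log2 change was 1.40 beside 0.00 over all genes. From mouse spermatocytes to round spermatids 6 of the 9 tested were called, all lower, with 60.5% of all genes called, 31.5% higher and 28.9% lower. From mouse round to elongating spermatids 6 of 9 were called, all lower, with 63.5% of all genes called, 28.7% higher and 34.8% lower. In opossum 3 of 9 were called at the first step (PIWIL1 and TDRD1 higher, PIWIL4 lower, background 63.6% and 38.2% called higher), 6 of 9 at the second (MAEL higher and PIWIL1, PIWIL2, MOV10L1, TDRD1 and ASZ1 lower, background 57.3%) and 2 of 7 at the last (MAEL higher, TDRD9 lower, background 44.6%). PIWIL4 was too low to be tested in mouse spermatids, and it and PIWIL2 in opossum round and elongating spermatids. With both directions pooled, the shares called among these genes were near those of all genes, and lower than the background in opossum at the first and last steps. By direction, mouse had 6 of 9 lower and 0 higher at each of the last 2 steps, as above. Opossum had 5 of 9 lower and 1 higher at the second step, beside 29% and 28.3% of all genes. At the last opossum step 1 was higher and 1 lower, beside 22.1% and 22.5%.

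Scaling moved these counts. With library totals alone 9 of 9 were called lower from mouse round to elongating spermatids, and 4 of 7 lower with none higher in opossum. The opossum counts were then 1 higher and 3 lower at the first step and 1 higher and 7 lower at the second, and the mouse counts at the first 2 steps stayed at 6. From mouse round to elongating spermatids totals added PIWIL1 (-1.14 ± 0.53 with TMM, adjusted p = 0.0839, and -2.49 ± 0.54 with totals, 0.00337, edgeR). They also added MAEL (-0.16 ± 0.23, adjusted p = 0.542, and -1.51 ± 0.20, 0.000312, edgeR) and MOV10L1 (-0.38 ± 0.46, 0.483, and -1.72 ± 0.47, 0.0103). In opossum totals added TDRD9 from spermatocytes to round spermatids (-0.91 ± 0.28, adjusted p = 0.0225, and -1.34 ± 0.34, 0.00485, edgeR). From opossum round to elongating spermatids they added TDRD1 (-0.64 ± 0.68, adjusted p = 0.465, and -2.16 ± 0.69, 0.0104, edgeR), PIWIL1 (-0.34 ± 0.66, 0.715, and -1.84 ± 0.64, 0.0176) and MOV10L1 (-1.13 ± 0.78, 0.237, and -2.62 ± 0.81, 0.00756). Which genes fell at the last step thus depended on the scaling in both species. In opossum the count of members called there also moved with the clusters regrouped. With 1 library left out, mouse PIWIL1 was called at the last step without replicate 3 (-1.95), and opossum TDRD9 at the second without replicate 3 (-1.16). The called rises at the first mouse step were smaller with totals: 1.74 for MAEL, 1.04 for HENMT1, 1.01 for DDX4 and 1.1 for TDRD1. Over all genes the split of higher against lower calls moved from 4540 and 4128 to 2798 and 5812 at the first mouse step, from 4269 and 5184 to 2219 and 8704 at the last mouse step, from 4089 and 4203 to 3326 and 5347 at the second opossum step and from 2687 and 2743 to 1038 and 5249 at the last. In mouse round to elongating spermatids, the calls of PIWIL2 (log2 -1.14) and TDRD1 (-1.27) also ended under other settings. That of PIWIL2 ended in 8 of 14 alternatives, among them leaving out replicate 1 (adjusted p = 0.069) or 2 (0.152, edgeR). That of TDRD1 ended in 4 of 14, among them no doublet removal and counts rounded up.

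**Figure D3:**
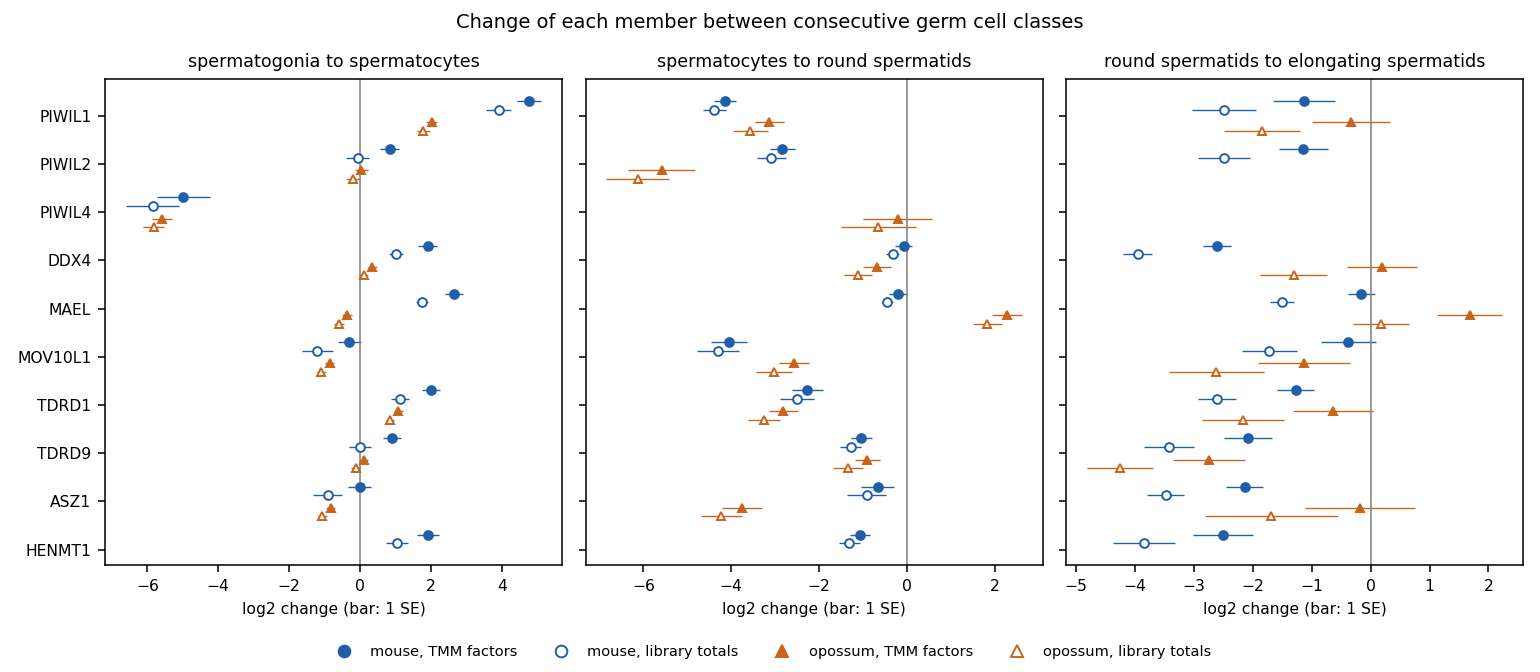
Log2 change of each gene (horizontal axis, bars 1 SE) between consecutive germ cell classes in mouse (circles) and opossum (triangles), filled for edgeR with TMM factors and open for scaling by library totals. The open symbols lie to the left of the filled ones, most in the panel of round to elongating spermatids, and MAEL has opposite signs in the species in the first panel.

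Whether a step differed between the species was tested as an interaction over the 6 libraries, in genes matched by symbol, where a constant effect of annotation on a gene cancels. At the first step 3 of the 9 shared genes were called, all with a lower change in opossum, where 54.5% of all 8294 genes were called, 30.7% higher and 23.8% lower. The differences were -2.78 ± 0.38 for PIWIL1, -3.06 ± 0.31 for MAEL and -1.60 ± 0.32 for DDX4 (log2, SE, edgeR adjusted p = 5.94e-05, 6.56e-06 and 0.00111). With library totals PIWIL1 (-2.16 ± 0.39) and MAEL (-2.37 ± 0.22) were still called and DDX4 (-0.91 ± 0.24) was below the minimum of 1. The split over all genes then moved from 2548 higher and 1972 lower to 3089 and 1229. With any 1 library left out 4 to 8 of the 9 were called, PIWIL1, MAEL and DDX4 among them each time. The 8 were called without mouse replicate 2. The share of all genes called with a library left out is not given here, beside 54.5% with all libraries. PIWIL1 stood in spermatogonia at 24 ± 13.5 CPM in mouse and 153 ± 45.6 in opossum, and in spermatocytes at 343 ± 168 and 507 ± 9.00.

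At the second step 4 of 9 were called (background 42.1%). ASZ1 and PIWIL2 fell further in opossum, by -3.21 ± 0.56 and -2.81 ± 0.74, and MAEL and MOV10L1 had a higher change there, by 2.35 ± 0.49 and 1.32 ± 0.51 (log2, SE, edgeR adjusted p = 0.000165, 0.00475, 0.000807 and 0.0432). The ASZ1 levels of opossum round spermatids lay within the opossum somatic range of 0 to 16.3 CPM. Those of MOV10L1 in mouse round spermatids lay within the mouse somatic range of 0 to 23.3. The PIWIL2 value rests on the near-empty opossum round spermatid sums, was -8.5 without opossum replicate 2 and -3.37 to -2.18 in the other 16 alternatives, and has its mouse round spermatid levels within the somatic range. The call of MAEL ended without the library block (edgeR adjusted p = 0.0517), and its opossum spermatocyte levels lay within the somatic range. That of MOV10L1 ended under 11 of 17 alternatives, among them library totals (1.29, edgeR adjusted p = 0.0913) and leaving out mouse replicate 1 or 3 or opossum replicate 1 or 3. At the last step 1 of 8 was called (background 35.9%), DDX4, with a change 2.46 ± 0.64 higher in opossum (edgeR adjusted p = 0.00328) and 2.65 with library totals. Both species' elongating spermatid levels of DDX4 lay within their somatic ranges. With totals MAEL was also called there (1.68 ± 0.56, edgeR adjusted p = 0.0305, against 1.49 ± 0.61 and 0.0565 with TMM), as it was in 9 of 17 alternatives, and ASZ1 was called without opossum replicate 2 (2.90). These tests take the classes as built. Opossum round spermatids held 226 to 850 cells per library and rest on 8 markers, and opossum replicate 1 gave 739 of the 1064 cells of a shallow elongating cluster. With that cluster left out and the unnamed late mouse cluster counted with spermatocytes, the same genes were called at the first 2 steps except MOV10L1. At the last step DDX4 (2.05) and MAEL (1.90) were then called higher and TDRD9 (-2.12) lower.

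The wider pathway was described from a list of 24 further genes, of which 22 were named in mouse and 17 in opossum. In mouse 9 of 20 tested rose and 6 fell from spermatogonia to spermatocytes, 4 rose and 12 fell to round spermatids, and 1 rose and 13 fell to elongating spermatids. Over all genes 31.1%, 31.5% and 28.7% were called higher at these steps and 28.3%, 28.9% and 34.8% lower. In opossum the numbers were 9 rising and 4 falling of 17, then 1 and 8 of 16, then 2 and 1 of 15 (edgeR, TMM), beside 38.2%, 28.3% and 22.1% of all genes called higher and 25.4%, 29% and 22.5% lower. The list's median log2 change at these steps was 0.68, -1.43 and -1.53 in mouse, beside 0.00, -0.06 and -0.30 over all genes, and 1.14, -1.38 and 0.38 in opossum, beside 0.29, -0.11 and 0.05. With library totals the last step had 0 rising and 18 falling in mouse and 1 and 6 in opossum.

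Of this list 7 of 17 genes were called in the interaction at the first step, 6 of 17 at the second and 5 of 16 at the last, each a smaller share than the background of 54.5%, 42.1% and 35.9% of all genes. EXD1, a factor of piRNA biogenesis, had 21.3 ± 5.79 CPM in mouse spermatogonia and 59.9 ± 16.2 in spermatocytes, and 50.5 ± 5.99 and 19.8 ± 8.16 in opossum (interaction log2 -3.59 ± 0.43, edgeR adjusted p = 2.66e-05). WDR77, the partner of the arginine methyltransferase PRMT5, had 144 ± 55.4 and 23.7 ± 8.23 CPM in mouse and stood at 5.97 ± 2.72 and 16.5 ± 1.29 in opossum (3.18 ± 0.45, adjusted p = 8.84e-05). FKBP6, a co-chaperone, stood at 599 ± 37.3 and 117 ± 60.5 CPM in mouse, and at 152 ± 15.1 and 217 ± 28.8 in opossum (2.33 ± 0.32, edgeR adjusted p = 6.31e-05). GPAT2, a mitochondrial protein, stood at 54.0 ± 9.14 and 54.4 ± 17 CPM in mouse and 79.8 ± 5.69 and 24.8 ± 7.57 in opossum (-2.41 ± 0.34, adjusted p = 8.9e-05).

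On entering round spermatids RNF17, a Tudor protein of spermatids in mouse, stood at 225 ± 171 and 219 ± 87.0 CPM in mouse but went from 619 ± 65.2 to 36.6 ± 23.3 in opossum (interaction log2 -4.30 ± 0.46, edgeR adjusted p = 8.13e-07). PRMT5, which methylates the PIWI proteins that Tudor domains bind, had 35.4 ± 10.5 and 3.57 ± 0.494 CPM in mouse and stood at 23.7 ± 2.84 and 23.0 ± 5.47 in opossum (3.32 ± 0.55, adjusted p = 8.83e-05). TDRD12 had an interaction of -2.77 ± 0.51 and GPAT2 of -2.17 ± 0.79 (edgeR adjusted p = 0.000239 and 0.0334), the latter not called without mouse replicate 2 or opossum replicate 1 or 3. From round to elongating spermatids PLD6, the mitochondrial nuclease (Zucchini) of piRNA biogenesis, had 14.7 ± 1.95 and 1.89 ± 0.417 CPM in mouse, and 10.6 ± 2.64 and 46.8 ± 22.5 in opossum (4.84 ± 0.74, edgeR adjusted p = 5.77e-06). TDRD7, a germ granule Tudor protein, had 210 ± 9.43 and 5.78 ± 2.30 CPM in mouse, and 403 ± 130 and 90.9 ± 24.1 in opossum (2.92 ± 0.64, adjusted p = 0.000548). MORC1 and MYBL1 had interactions of 2.98 ± 0.96 and 2.90 ± 0.80 (edgeR adjusted p = 0.0154 and 0.00541), and that of MORC1 was not called without mouse replicate 2 or 3 or opossum replicate 3. All of the genes named for the 3 interactions were also called with library totals.

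Likeness was sought among 5926 genes expressed in germ cells of both species (5927 for PIWIL4), with the preset cell type markers left out. Over the 12 sums of each species the genes most like PIWIL1 were LPXN, OS9 and CHD1. Their Pearson correlations were at least 0.916, 0.902 and 0.901 in both species. Those most like PIWIL2 were ERAL1, DTL and SLC39A9 (at least 0.973, 0.967 and 0.964), and those most like PIWIL4 were SMAD3, SPATS2L and NME4 (at least 0.979, 0.976 and 0.975). The sums share libraries and class depth, and the correlations are a description. Between the members, PIWIL1 had 0.874 with TDRD1 in mouse and 0.961 in opossum, and 0.416 with MAEL in mouse but -0.901 in opossum.

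Over opossum ages, whole-testis levels are TPM, which are scaled per length and depth and can be compared between genes. In adults DDX4 and MAEL were the highest of the 9, with medians of 213 and 235 TPM over 7 libraries, followed by PIWIL1 (65.0), TDRD9 (48.3) and TDRD1 (42.8). PIWIL4 (12.4), ASZ1 (9.79), MOV10L1 (7.70) and PIWIL2 (6.28) were lowest. In bulk tissue fewer cells of a type and less RNA per cell cannot be told apart. The summed TPM of 21 of 35 spermatocyte markers was 347 to 371 at 1 month, 215 to 1896 at 2 months, 5069 to 5744 at 3 months, 2637 to 4275 at 4 months and 1048 to 4000 in adults. That of 8 of 25 round spermatid markers was 3.34 to 4.06 at 1 month, with CATSPER3 and SPAM1 at 0, and 3.88 to 114.5 at 2 months. It was 569.8 to 639 at 3 months, 200.2 to 511.3 at 4 months and 136.5 to 715.6 in adults. That of 13 of 26 elongating spermatid markers was 4.70 to 5.72 at 1 month and 8348 to 26820 in adults. That of 15 of 19 stromal markers went from 2434 to 3395 at 1 month to 111 to 952 in adults. The part of these shifts in the values below was not tested.

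PIWIL1 was at 6.66 and 11.1 TPM at 1 month and at 22.6, 65.0 and 145 (lowest, median and highest) in adults. TDRD1 was at 6.59 and 6.92 and then 15.9, 42.8 and 58.1 TPM, and TDRD9 at 7.96 and 10.3 and then 14.4, 48.3 and 109.8. MAEL was at 30.5 and 40.03 TPM and then 70.3, 235 and 336. No adult library of these 4 genes overlapped the pair at 1 month. The share of all genes without overlap was not counted, so this does not set the 4 apart. All 4 rose. The log2 changes were 2.80 ± 0.76, 2.27 ± 0.56, 2.28 ± 0.53 and 2.49 ± 0.51 on the log2(TPM + 1) scale (SE, limma with library type as a term, Benjamini-Hochberg adjusted p = 0.00588, 0.0028, 0.00184 and 0.000655). These were 4 of 9 members called, all higher, beside 44.8% of all 19300 genes tested (29.4% higher), and the all-gene median change was 0.59. With each library centred on its median gene, that median became -0.59. PIWIL1 (1.62) and TDRD9 (1.10) were then still called higher, MAEL (1.31, adjusted p = 0.0594) and TDRD1 (1.09, 0.063) were not, and PIWIL4 (-1.48, 0.0124) and ASZ1 (-1.13, 0.0461, limma) were called lower. The all-gene split moved from 5680 higher and 2967 lower to 2755 and 6846. The PIWIL1 call ended without 1-month replicate 1 (limma adjusted p = 0.0833).

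The other 5 members were not called between 1 month and adult. PIWIL2 was at 3.93 and 5.58 TPM and then 2.61, 6.28 and 9.58, PIWIL4 at 13.2 and 16.8 and then 3.32, 12.4 and 18.1, ASZ1 at 9.24 and 8.97 and then 2.19, 9.79 and 11.9. MOV10L1 was at 3.73 and 5.92 and then 3.57, 7.70 and 11.6, and DDX4 at 96.4 and 139.9 and then 64.7, 213 and 456. Their ages overlapped.

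Between 2 and 3 months 5 of 9 were called, 3 higher and 2 lower, beside 23% of all genes, 15% higher and 8.04% lower. DDX4 was at 103, 122, 91.2 and 45.1 TPM at 2 months and 572, 499, 498 and 537 at 3 months. MAEL was at 77.0, 71.4, 50.9 and 24.5 and then 309, 301, 311 and 278 TPM, and TDRD9 at 27.6, 53.6, 38.9 and 19.3 and then 135.6, 124, 119 and 135. All 3-month libraries lay above all 2-month ones in each. How many of all genes did so was not counted, so this does not set the 3 apart. The rises were 1.77 ± 0.58 for DDX4, 1.63 ± 0.58 for MAEL and 1.73 ± 0.60 for TDRD9 (log2, SE, limma adjusted p = 0.0339, 0.0469 and 0.0449). They were called under 17, 8 and 15 of 27 alternatives, and none of the 3 without 2-month replicate 1 or 4 or without any 1 of the 3-month replicates.

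PIWIL4 and ASZ1 were called lower at 3 months. PIWIL4 was at 30.8, 6.66, 5.48 and 14.6 TPM at 2 months and 7.83, 9.05, 6.21 and 9.86 at 3 months, and ASZ1 at 20.6, 7.16, 7.24 and 8.03 and then 6.21, 8.97, 4.58 and 6.79. In both genes 2-month replicate 1, the only poly(A) library of that age, stood above the rest, and the rRNA-depleted libraries overlapped the 3-month values. The fitted changes of -1.71 ± 0.42 and -1.69 ± 0.38 (limma adjusted p = 0.00906 and 0.0056) became -0.46 and -0.52 without the library type term (0.533 and 0.432). Without that replicate they lost their calls (adjusted p = 0.302 and 0.135), and the count of all genes called went from 4440 to 141 and that of members to 0. Median-centred, 4 members were called at this step, all lower, while calls over all genes moved from 2888 higher and 1552 lower to 2134 and 4323 of 19300.

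From 1 to 2 months MOV10L1 was the 1 member of 9 called, beside 11.1% of all genes called and 7.22% called higher. It was at 3.73 and 5.92 TPM at 1 month and 15.6, 7.68, 6.54 and 8.61 at 2 months, with a log2 change of 1.55 ± 0.46 (limma adjusted p = 0.0356). The call held under 17 of 27 alternatives. It ended without 1-month replicate 1 or 2, 2-month replicate 1 or 2, 3-month replicate 1 or adult replicate 2, and also without the library type term (log2 0.82), in poly(A) libraries alone (1.54), median-centred (0.69) and with the replicate block (1.5, limma adjusted p from 0.144 to 0.301 in these 4). PIWIL1 was at 26.2, 104, 65.2 and 13.6 TPM at 2 months, where replicate 4 was near the 1-month values and replicate 2 at an adult level. TDRD1 spread likewise, from 6.47 in replicate 4 to 43.0 in replicate 2. Neither was called (log2 2.48 ± 0.99 and 1.75 ± 0.72, limma adjusted p = 0.119 and 0.132), though TDRD1 was without 2-month replicate 4 (2.0, adjusted p = 0.0454). At 3 months PIWIL1 had 139, 105, 90.9 and 95.0 TPM and TDRD1 54.8, 48.0, 40.2 and 58.0, each within the adult range. PIWIL2 had 8.60, 8.23, 6.92 and 6.18 TPM at 2 months and 8.16, 7.77, 6.43 and 5.18 at 3 months, and MOV10L1 had 10.3, 10.97, 8.85 and 8.94 at 3 months. At 4 months PIWIL1 had 138, 78.4 and 28.1 TPM, MAEL 124, 228 and 527, and DDX4 198, 344 and 456, replicate 3 being the lowest for PIWIL1 and the highest for MAEL and DDX4. TDRD9 had 58.3, 83.9 and 55.7 TPM and TDRD1 36.2, 34.6 and 43.9. PIWIL2 had 11.4, 7.63 and 11.8 TPM, MOV10L1 12.5, 9.26 and 12.6, PIWIL4 13.9, 12.4 and 19.8, and ASZ1 9.02, 6.72 and 14.9, with replicate 2 the lowest in each.

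From 3 to 4 months limma called 0 of 9 members and 0 of all genes (0% called, 1686 at an unadjusted p under 0.05). From 4 months to adult it called 0 members and 5 genes (0.0259%, 1836 unadjusted).

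**Figure D4:**
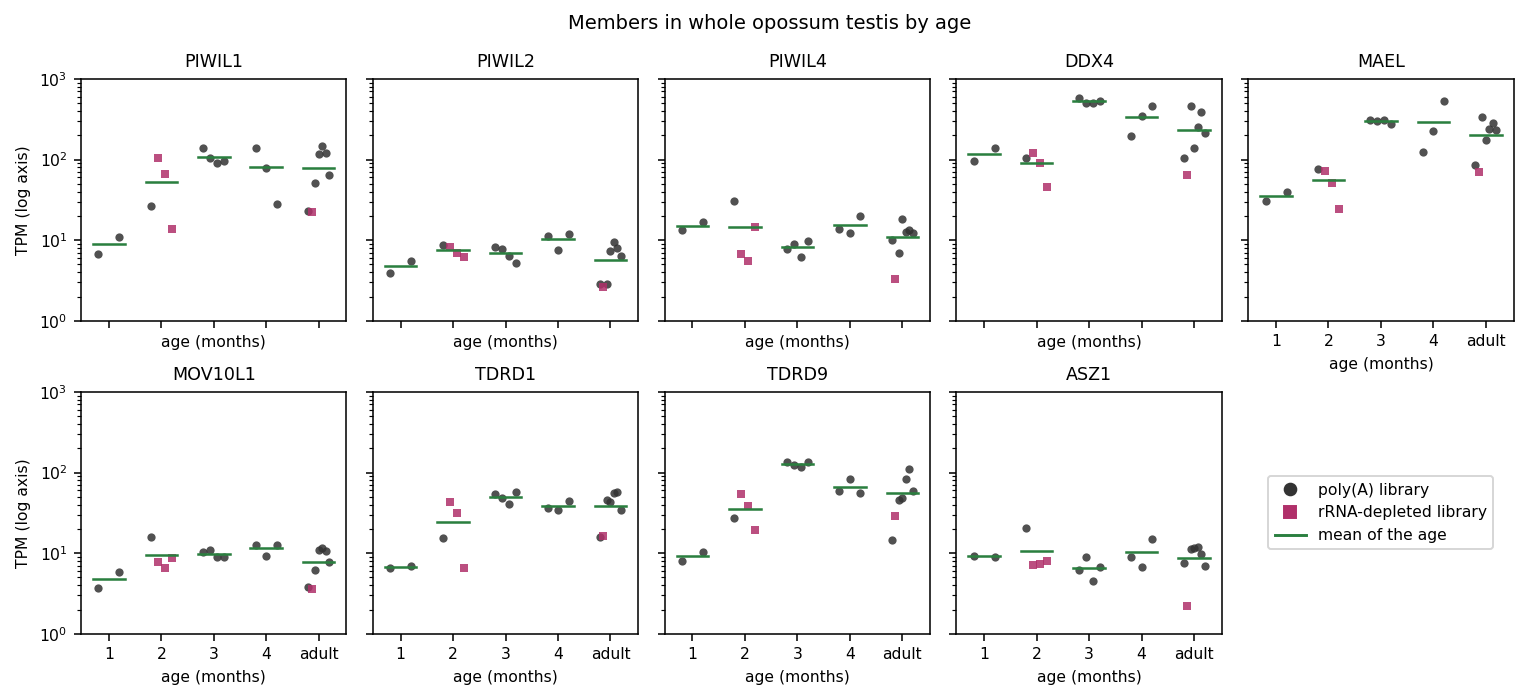
Level of the 9 opossum genes in TPM (vertical axis, logarithmic) by age (horizontal axis), 1 point per library, circles for poly(A) and squares for rRNA-depleted libraries, and bars for the mean of each age. DDX4, MAEL and TDRD9 step up between 2 and 3 months, while the adult points of PIWIL2, PIWIL4, MOV10L1 and ASZ1 overlap those at 1 month.

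Of the 17 wider genes measured in bulk, 12 were called higher and 0 lower between 1 month and adult, beside 29.4% and 15.4% of all genes. Median-centred, 5 were higher and 2 lower, beside 2755 and 6846 of all 19300 genes. The 12 became 6 without 1-month replicate 1, 8 without 1-month replicate 2 and 5 with the replicate block. All genes called higher also fell, from 5680 of 19300 to 3385 of 19116, 3321 of 19111 and 3459 of 19300 in these settings. TCFL5, a transcription factor that acts with MYBL1 in mouse spermatocytes, was at 0.508 and 0.975 TPM at 1 month and at 11.8, 53.9 and 132 in adults (log2 4.69 ± 0.83, limma adjusted p = 0.000194). TDRD5, a Tudor protein that selects pachytene precursors, was at 4.09 and 5.62 and then 14.1, 145 and 297 TPM (4.03 ± 1.07, adjusted p = 0.0049). PLD6 was at 1.83 and 2.19 and then 17.7, 54.1 and 91.2 TPM, and TDRD6 at 0.146 and 0.330 and then 2.04, 21 and 34.4 (3.85 ± 0.67 and 3.47 ± 0.79, limma adjusted p = 0.000155 and 0.00164). All 4 had adult libraries above both 1-month libraries. How many of all genes did so was not counted, so this does not set the 4 apart. The 4 were also called higher when median-centred.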

How the data were processed

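Testes were profiled in 26 samples: 3 single-cell libraries each of adult mouse and opossum, and 20 bulk libraries of opossum. Single-cell values are deposited as estimated counts of UMIs per gene and barcode, which the authors made with Cell Ranger 6.0.1 per the submitters' processing notes. Between 93.08% and 97.37% of entries were not whole numbers, and the step that made them fractional is not given in the sources used here. The bulk tables hold the authors' TPM, FPKM and coverage values, made with HISAT2 2.2.1, SAMtools 1.12 and StringTie 2.1.4 per the submitters' processing notes. The ratio of the deposited coverage to FPKM of a gene gave 2.899 to 7.119 aligned gigabases per library. The labels of single-cell replicate 3 give the build as mm39 for mouse and ASM229v1 for opossum. The submitters' processing notes name GRCm39 for every sample, opossum included, so the opossum build of the other libraries, bulk included, is not given in the sources used here. Mouse coordinates are from GENCODE vM39 on GRCm39.

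Barcodes under 1000 UMIs or 500 genes were dropped. The 8% of cells with the highest Scrublet doublet score in each library were then removed. This was done because its automatic threshold marked only 0% to 1.974% of cells per library. Clustering used scanpy 1.11.5 (2000 variable genes, 30 principal components, 8 neighbours per library, Leiden resolution 1, seed 1). A cluster took the class whose listed markers stood highest on average, each scaled over the clusters. That average had to be positive, with at least 3 markers 1.5-fold higher and over 5 CPM. A cluster stayed unnamed where another class had more markers among its 10 leading genes. So did a cluster of low depth with no marker of its own class among them. Counts were summed per library and class with at least 20 cells and rounded to whole numbers. They were tested with edgeR 4.0.16 (quasi-likelihood, TMM factors, filterByExpr) with the library as a block, since classes of a library share it, and interactions covered 10751 genes matched by symbol. Bulk TPM values were tested as log2(TPM + 1) with limma 3.58.1 in 19300 genes with at least 1 TPM in at least 2 libraries, with library type as a term. All p-values were adjusted by Benjamini-Hochberg over all genes tested. Intervals from counts cover counting error only.

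The genes followed and all lists were chosen with earlier results of these data known. The 10 members are always named. Of the wider list at most the 4 genes with the largest absolute log2 value are named per interaction and for 1 month against adult, and the 3 genes most like each PIWI gene, by the lower of the species' correlations of log2(CPM + 1). MYBL1 in spermatocytes was added for the promoters after its values were seen. On data simulated from the real means, 95.9% of 4-fold changes were recovered from mouse spermatogonia to spermatocytes (13853 genes). The share was 68.0% in the first interaction (8016 genes) and 50.0% in bulk from 1 month to adult (19300 genes). False calls numbered 6, 21 and 4, beside 187, 136 and 100 recovered. The single-cell simulations gave every gene the same fixed spread and changed only genes of higher mean count. Recovery at the spread of the real libraries was thus not measured. All other genes were left unchanged, whereas 59.4% of genes were called in the real comparison of mouse spermatogonia and spermatocytes. Errors from the choice of scaling were therefore not measured either. Alternatives were UMI minima of 500 and 2000, Leiden resolution 2, no doublet removal, entries rounded up, RLE factors, DESeq2 1.42.0, no low-count filter, no library block, a pseudocount of 0.1, FPKM, no library type term, poly(A) libraries only, median centring, a replicate block and each library left out. Scaling by library totals, and regrouping of 2 clusters, were chosen after seeing the data.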

Additional observations from a re-analysis of the deposited data

Results flagged for a closer look

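A bulk value of ASZ1 stood apart from the rest of its age. It was at 20.6 TPM in 2-month replicate 1, the poly(A) library, while the other 3 libraries of that age had 7.16 to 8.03 TPM. It was the only such value in the 27 groups of a gene and an age examined, where chance gives about 1 in 20.

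The change between consecutive germ cell classes differed between the species in 8 interaction tests (edgeR, Benjamini-Hochberg adjusted). These were 3 of 9 members at the first step, 4 of 9 at the second and 1 of 8 at the last. Over all genes 54.5%, 42.1% and 35.9% were called at these steps. From spermatogonia to spermatocytes the opossum change minus the mouse change was -2.78 for PIWIL1, -3.06 for MAEL and -1.60 for DDX4 on the log2 scale. From spermatocytes to round spermatids it was -3.21 for ASZ1, -2.81 for PIWIL2 (-8.5 without opossum replicate 2, with opossum round spermatids at 0 in 2 of 3 libraries), 2.35 for MAEL and 1.32 for MOV10L1. From round to elongating spermatids it was 2.46 for DDX4. In mouse the levels of PIWIL1 and MAEL in spermatogonia lay within those of somatic classes, as did MAEL in opossum spermatocytes. The same held for ASZ1 and PIWIL2 in opossum round spermatids and for MOV10L1 and PIWIL2 in mouse round spermatids. It also held for DDX4 in elongating spermatids of both species. The part of this in these differences was not tested.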

How the results depend on the processing

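The log2 values counted here are those of a gene and comparison called under at least 1 setting, and of PIWIL1 from 1 to 2 months. With all libraries kept, 688 values under an alternative kept their direction and side of the threshold, 58 lost a call, 51 gained one and 16 changed sign. With each library left out in turn the numbers were 542, 48, 25 and 4. The 44 pairs of gene and comparison called under no setting changed sign in 97 of 989 values, in 25 of the pairs.

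Among the former, signs changed as follows, with the cause not tested. With library totals, PIWIL2 (0.83 to -0.073) and TDRD9 (0.90 to -0.002) changed sign from mouse spermatogonia to spermatocytes, and MOV10L1 in that interaction (-0.60 to 0.086). From mouse round to elongating spermatids, PIWIL1 (-1.14) was 0.15 and MOV10L1 (-0.38) 0.28 with counts rounded up, MOV10L1 was -0.84 to 0.12 and MAEL (-0.16) -0.33 to 0.075 with a library left out, above 0 without mouse replicates 3 and 1. In opossum PIWIL1 (-0.34) was 0.42 with a minimum of 500 UMIs. In the interactions PIWIL4 (-0.70) was 2.40 at a minimum of 2000 UMIs and 2.1 with no doublet removal at the first step. At the last step ASZ1 (1.62) was -0.58 at 2000 UMIs and -0.94 with clusters regrouped, and TDRD9 (-1.03) was 0.31 at 500 UMIs. In bulk from 2 to 3 months MOV10L1 (-0.64) was 0.086 without the library type term and TDRD1 (0.96) -0.016 without 2-month replicate 1, up to 1.61 without adult replicate 2. From 1 month to adult ASZ1 (0.05) was -0.17 with FPKM and -0.17 without the term, -1.13 median-centred, -0.027 with the replicate block and -0.003 without adult replicate 5 to 0.129 without adult replicate 7.

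Counts of all genes called moved by over 1.5 times mainly in bulk. From 1 to 2 months (2142) they were 5156 without the term, 1074 in poly(A) libraries, 1006 with the replicate block and 582 to 3111 with a library left out. From 2 to 3 months (4440) they were 2804 with the block and 141 to 5277. From 1 month to adult (8647) they were 5438 to 9926. From 3 to 4 months (0) they were 8 at pseudocount 0.1, 5 with FPKM, 6 without a filter, 3 median-centred and 0 to 33. From 4 months to adult (5) they were 8 with FPKM, 2 without a filter, 2 without the term, 3 in poly(A) libraries, 2 median-centred, 0 with the block and 2 to 61. In opossum round to elongating spermatids (5430) they were 3289 to 5407, and in that interaction (3048) 1994 to 2988.

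Counts of members called follow, with all genes called under the same setting in brackets for bulk only. From 1 to 2 months 1 member was called (2142 genes). It was 2 with FPKM (2557), 0 in poly(A) libraries (1074), 0 median-centred (2768) and 0 with the block (1006). With a library left out the members numbered 0 to 3 (582 to 3111). From 2 to 3 months 5 were called (4440). They were 3 with FPKM (5012), 2 without a filter (3702 of 30720 tested) and 3 without the term (5108). With the block they were 2 (2804), and with a library left out 0 to 5 (141 to 5277). The single-cell counts that follow stand without the share of all genes under the same setting. From mouse round to elongating spermatids (6) they were 3 with no doublet removal and 5 to 7. In opossum (2) they were 1 at 500 UMIs, 4 with totals, 4 regrouped and 1 to 2. In the first interaction (3) they were 5 at 500 UMIs, 6 at 2000, 6 with no doublet removal, 7 without a filter and 4 to 8. In the second (4) they were 2 with no replicate block and 3 to 5. In the last (1) they were 2 at 500 or 2000 UMIs, at Leiden resolution 2, with no doublet removal, rounded up, with totals or without a filter, 3 regrouped and 1 to 3. Same-numbered bulk libraries were compared by the correlation of their deviations from age means: 7 of 29 pairs were over 0.1 (-0.285 to 0.672). The highest were 0.672 for replicate 3 of 4 months and adult and 0.62 for replicate 1 of 2 months and adult. Deviations within an age are tied to each other where libraries are few, so this check cannot decide whether replicate numbers pair samples. The replicate block ended the PIWIL1 call from 1 month to adult (log2 2.39, limma adjusted p = 0.0692). Low sums in spermatids limit PIWIL2 and PIWIL4.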
